A study of Homo sapiens with 14 samples.

Results

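The unenriched miRNA content of A549 cells, a human lung adenocarcinoma line, was described from 5 Input libraries of an m7G-RIP-seq experiment, in which an antibody against N7-methylguanosine is used to pull down RNA. The Input libraries were taken by their sample labels and are 5 of the 14 libraries of the series. Input is total RNA of cultured A549 cells that was decapped and heat-denatured, kept aside before the antibody was added, and then passed through the same elution buffer and column clean-up as the pulldown. Nothing was knocked down or treated in these libraries, and the pulldown libraries were not used. All 2588 mature miRNA entries of the count table were kept, and 838 hairpins had an entry for each of their arms. The labels do not say whether the replicates came from separate cultures, so the spread between them may be technical.

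A miRNA is cut from a hairpin whose arms pair with each other, and either arm can be loaded into an Argonaute protein, where the seed (bases 2 to 8 of the mature strand) finds target mRNAs. The arm at the 5′ side of the hairpin gives the 5p miRNA and the arm at the 3′ side the 3p miRNA. The strand that is not loaded is usually degraded, so one arm tends to outnumber the other, and the strand with the less stably paired 5′ end and a 5′ uridine or adenosine is known to be favoured. Hairpins that lie close together on a strand form clusters and are often cut from a common transcript.

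The mature sequences that carry most of the counts are shown here with the seed in capitals, written 5′ to 3′, as listed by RefSeq on GRCh38.p14. They start with U in all but 3 of the cases shown.
miR-21-5p: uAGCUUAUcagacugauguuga
miR-100-5p: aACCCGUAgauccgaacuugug
miR-99b-5p: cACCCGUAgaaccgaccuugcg
let-7i-5p: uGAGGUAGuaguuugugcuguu
let-7a-5p: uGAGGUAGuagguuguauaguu
let-7f-5p: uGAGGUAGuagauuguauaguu
miR-92a-3p: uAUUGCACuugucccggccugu
miR-27b-3p: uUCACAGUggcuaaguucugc
miR-10a-5p: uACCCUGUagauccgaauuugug
miR-192-5p: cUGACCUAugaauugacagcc
miR-100-5p and miR-99b-5p share a seed, and so do the 3 let-7 members. miR-30d-5p, miR-151a-3p and miR-320a were among the first 20 entries but had no sequence in the reference used.

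The libraries held 7097379 to 14874685 counts, and a count of 0 allows a level of up to 0.202 to 0.423 counts per 1000000 of the library's total (CPM), from 3 counts and for counting error only. Replicates 1 to 3 stood apart from replicates 4 and 5. Spearman's rho over the 515 entries with at least 10 counts in every library was 0.980 to 0.984 within the first set, 0.993 in the second and 0.942 to 0.949 between them. Of 331 entries with a mean over 10 CPM, 73 (22.1%) differed over 2-fold between the means of the sets, while 0 of the first 20 did. The labels give no batch, so values are given for every library and means are over all 5 unless stated.

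Counting left its own marks on the table. An entry whose every locus lies opposite another annotated miRNA on the other strand was at 0 in all libraries in 72 of 76 cases (94.7%), against 782 of 2198 entries (35.6%) with no such neighbour. miR-423-5p, miR-423-3p, miR-103a-3p, miR-338-3p and miR-374b-5p were at 0 in this way. How reads at such places were treated was not tested, and a 0 of these entries is not read as absence. Of 65 entries with several hairpins of the same mature sequence and at least 50 counts, 29 (44.6%) had counts that were exact multiples of the number of hairpins in all 5 libraries, for example miR-941 with multiples of 5. Of 629 entries with 1 hairpin, 18 (2.86%) were multiples of 2 in this way. The level of an entry with several hairpins may thus be counted more than 1 time, and let-7a-5p (3 hairpins), miR-92a-3p (2), let-7f-5p (2) and miR-7-5p (3), whose counts were not exact multiples, are the entries of the first 15 that this touches.

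A single miRNA, miR-21-5p, an abundant miRNA of many tumours, took 42.3% ± 3.57 of all counts (SD, n = 5). The first 5 entries held 66.7% ± 3.35, the first 10 held 78.5% ± 2.13 and the first 20 held 86.7% ± 2.03. Only 2 entries were needed for 50% of the counts, 27 for 90% (23 to 32 in single libraries) and 131 for 99% (120 to 143). There were 12 entries at or over 10000 CPM, which held 81.3% of the counts, 40 between 1000 and 10000 CPM with 14.4%, and 99 between 100 and 1000 CPM with 3.47%. At the other end, 948 detected entries lay under 1 CPM and together held 0.0234% of the counts, and 992 entries were at 0 in all 5 libraries. At least 1 count was found for 1048 to 1308 entries per library, and 817 entries were found in every library.

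**Figure D1:**
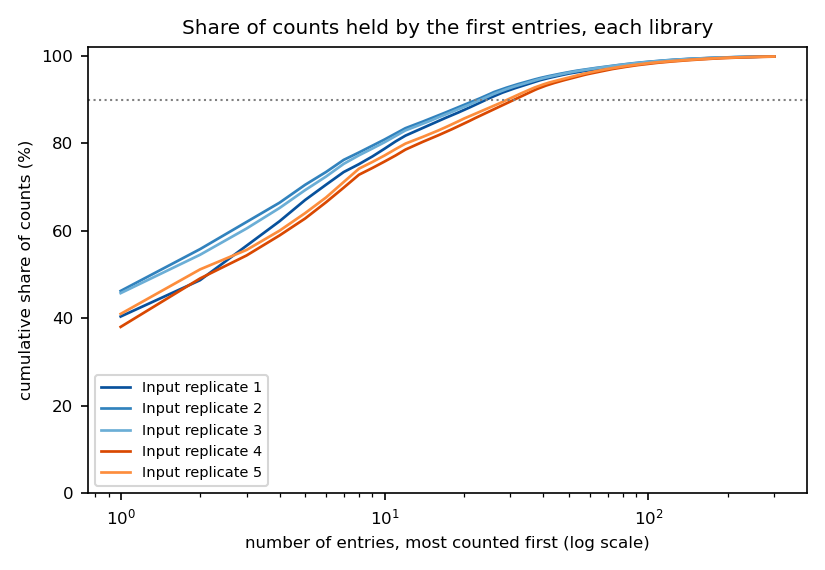
Cumulative share of counts (percent, y axis) against the number of entries taken from the most counted down (x axis, log scale), 1 line for each of the 5 Input libraries; the dotted line is 90%. From 5 entries on, replicates 4 and 5 lie below replicates 1 to 3 until the lines meet near the top, and the lines cross 90% between 23 and 32 entries.

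The first rank was held by miR-21-5p in every library, with 404153, 462595 and 457586 CPM in replicates 1 to 3 and 380417 and 410105 CPM in replicates 4 and 5. Its hairpin lies on chromosome 17 (59841266 to 59841337, plus strand, GRCh38), in an exon of VMP1. The second rank was always held by miR-100-5p, a miRNA of the miR-99/100 family known for targeting mTOR, with 83096, 95567, 87690, 110712 and 101743 CPM in replicates 1 to 5. miR-21-5p was above miR-100-5p by 2.15 ± 0.25 on the log2 scale (SD, n = 5). Below these 2, the order was less firm.

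let-7i-5p held 78887, 62059 and 59966 CPM in replicates 1 to 3, against 37096 and 40100.5 CPM in replicates 4 and 5. It ranked 3 in the first set and 6 and 5 in the second, so its range overlapped that of let-7a-5p, which held 43999 to 55671 CPM, and of miR-92a-3p, which held 40841 to 52534 CPM. The sets of libraries did not overlap for let-7i-5p. With counts divided by the number of hairpins, let-7a-5p held 1.74% of the counts in place of 4.73% (rank 7), miR-92a-3p 2.50% in place of 4.54% (rank 6) and let-7f-5p 1.69% in place of 3.07% (rank 9). The let-7 miRNAs are known as repressors of RAS, MYC and HMGA2, and miR-92a-3p as the most counted product of the miR-17-92 oncogenic cluster in many cells.

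miR-99b-5p held 27668 to 38684 CPM and let-7f-5p 29017 to 34918 CPM, and they changed places between libraries. miR-27b-3p held 18095, 16986 and 19566 CPM in replicates 1 to 3 and 33361 and 35731 CPM in replicates 4 and 5, a ratio of set means of 1.90. It lay below let-7f-5p in the first set and above it in the second.

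Ranks 9 to 12 were taken by miR-10a-5p, miR-30a-5p, miR-30d-5p and miR-192-5p at 13724 to 15569 mean CPM, and their ranges overlapped one another. miR-10a-5p, which comes from the HOXB gene cluster, was the steadiest of them at 15569 ± 719 CPM (SD, n = 5). A clear step followed, since miR-192-5p was above miR-7-5p in all 5 libraries by 0.88 ± 0.28 on the log2 scale (SD, n = 5).

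Ranks 13 to 20 fell between 7510 and 5901 mean CPM and held miR-7-5p, let-7g-5p, miR-151a-3p, miR-26a-5p, miR-24-3p, miR-320a, miR-125a-5p and miR-224-5p. No neighbours in this stretch kept 1 order in all 5 libraries. Over the 19 neighbouring pairs of the first 20 entries, 5 kept their order in all 5 libraries, and the same number had ranges that did not overlap. The 17 of the first 20 with a sequence were 21 to 25 bases long, and a read covers a whole miRNA, so their counts do not scale with length, although ligation of the library adaptors is known to favour some ends over others.

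Families were formed from entries with the same seed. The let-7 family held 15.3% ± 2.45 of the counts (SD, n = 5), the second largest mean share after that of miR-21-5p. Its share was 19.2%, 15.4%, 15.4%, 13.1% and 13.3% in replicates 1 to 5, and in replicates 4 and 5 it lay below that of the miR-99/100 family. With counts divided by the number of hairpins its mean was 11.7%, below the 14.4% of the miR-99/100 family. let-7i-5p made up 35.8% ± 6.02 of the family, let-7a-5p 31.3% ± 2.81 and let-7f-5p 20.3% ± 2.27. let-7g-5p, let-7e-5p and let-7b-5p had 3.06% to 4.94% of it each, and let-7c-5p, let-7d-5p and miR-98-5p were under 1%. The part of let-7i-5p was 38.9% to 41.2% in replicates 1 to 3 and 28.4% to 30.2% in replicates 4 and 5, so the sets did not overlap. Of 11 entries with this seed, 9 carry the names let-7 or miR-98, identical in the seed and different further on.
let-7b-5p: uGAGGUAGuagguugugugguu
let-7c-5p: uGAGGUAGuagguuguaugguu
let-7d-5p: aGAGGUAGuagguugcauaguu
let-7e-5p: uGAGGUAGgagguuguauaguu
let-7g-5p: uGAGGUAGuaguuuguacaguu
miR-98-5p: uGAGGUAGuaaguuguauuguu
let-7a-5p, let-7f-5p and let-7i-5p are shown above.

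The miR-99/100 family held 13.1% ± 1.52 of the counts (SD, n = 5), of which miR-100-5p made up 73.1% ± 1.56, miR-99b-5p 24.6% and miR-99a-5p 2.30% ± 0.188. Its share was 11.5% to 12.6% in replicates 1 to 3, below the 15.3% and 14.0% of replicates 4 and 5. The miR-25/92 family followed with 5.05% ± 0.579, of which miR-92a-3p made up 89.9%, and with divided counts it held 3.06%. Together with miR-21-5p, these 3 families covered most of the counts of each library.

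The miR-30 family, whose members are named in the repression of epithelial to mesenchymal transition, held 3.28% ± 0.337 of the counts (SD, n = 5), shared by miR-30a-5p with 45.2% of it and miR-30d-5p with 43.7%. miR-30d-5p and miR-30b-5p were placed in it by name, since they had no sequence. The miR-27 family held 1.84% to 2.11% in replicates 1 to 3 but 3.60% and 3.83% in replicates 4 and 5, and miR-27b-3p was 92.5% of it. Of the miR-10 family (1.71% ± 0.0557), miR-10a-5p made up 91.1% ± 2.47 and miR-10b-5p, placed by name, at most 7.24% in replicates 1 to 3 and 11.7% and 11.5% in replicates 4 and 5. The family of miR-192 and miR-215 (1.38% ± 0.127) was 99.7% miR-192-5p.

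The miR-125 family, of miR-125a-5p and miR-125b-5p, held 0.804% to 0.913% of the counts in replicates 1 to 3 and 1.81% and 1.51% in replicates 4 and 5, and its leading member changed. miR-125a-5p was 58.4% to 60.8% of the family in the first set and 46.5% to 47.4% in the second. miR-125b-5p is made from 2 hairpins and miR-125a-5p from 1. With counts divided by the number of hairpins, miR-125a-5p held 0.679% of the counts and the family 0.988%, so the change of leader depends on this choice. The family of miR-221 and miR-222, which repress the cell cycle inhibitor p27, held 0.919% ± 0.185 (SD, n = 5), with miR-222-3p above miR-221-3p in all 5 libraries.

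Clusters were formed from hairpins on 1 strand at most 10 kb apart, and 97 clusters of at least 2 hairpins were found among 1850 annotated hairpins. Entries that belong to 1 such cluster held 26.1% ± 3.58 of the counts (SD, n = 5), entries of a lone hairpin, miR-21-5p among them, held 57.3% ± 4.32, and entries that several places share held 16.5% ± 1.31. Members of a cluster had far from equal counts. In the let-7a-2/miR-100 cluster on chromosome 11 (122146522 to 122152308, minus strand), miR-100-5p was 99.99% of the entries that only this cluster gives, and let-7a-2-3p reached 8.37 ± 0.811 CPM (SD, n = 5).

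The miR-99b/let-7e/miR-125a cluster on chromosome 19 (51692612 to 51693339, plus strand) held 4.51% ± 0.628 of the counts (SD, n = 5). miR-99b-5p, let-7e-5p and miR-125a-5p, the 5p arms of its 3 hairpins, stood at 32327 ± 4613, 5459 ± 535 and 6159 ± 1621 CPM. miR-125a-5p was below let-7e-5p in replicates 1 and 2 and above it in the other 3. In the miR-23b/27b/24-1 cluster on chromosome 9 (95085208 to 95086088, plus strand), within AOPEP (miR-23b and miR-27b in an intron, miR-24-1 in an exon), the leading entries were 3p arms. miR-27b-3p was 86.6% of the entries that only this cluster gives and miR-23b-3p 11.1%, and miR-24-3p, which a second cluster shares, stood at 6452 ± 785 CPM (SD, n = 5). The miR-24-1 hairpin lies opposite miR-3074 on the other strand, and miR-24-1-5p was at 0 in all 5 libraries, which is not read as absence. How much of miR-24-3p was counted at this cluster was not tested.

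The 4 hairpins around miR-192 on chromosome 11 (1.37% ± 0.126) and the miR-30b/30d hairpins (1.44% ± 0.194) each had a single entry with over 99% of the counts of the entries that only these hairpins give. miR-194-5p and miR-194-3p, which another place shares, are not in this, and beside them miR-192-5p made up 93.5%. miR-30b-5p, which shares the seed of miR-30d-5p and lies beside it, reached 54.1, 39.9 and 41.2 CPM in replicates 1 to 3 and 119 and 136 CPM in replicates 4 and 5, against 12683 to 17688 CPM for miR-30d-5p. Neighbouring hairpins were closer in the cluster of miR-221 and miR-222 on the X chromosome (0.978% ± 0.200), in the cluster of miR-182, miR-96 and miR-183, known from sensory cells and tumours (0.593% ± 0.0285), and in the cluster of miR-106b, miR-93 and miR-25 in MCM7 (0.532% ± 0.119). Even so, miR-96-5p stood at 40.3 ± 14.8 CPM while its neighbours miR-182-5p and miR-183-5p stood at 3919 ± 307 and 1950 ± 298 CPM (SD, n = 5). The miR-224/452 cluster (0.666% ± 0.0217) and the let-7a-3/let-7b cluster (0.482% ± 0.0959) complete the first 10.

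The miR-17-92a-1 cluster on chromosome 13 (91350605 to 91351391, plus strand) shows how sharing hides a cluster's level. Its own entries held 0.151% ± 0.0287 of the counts (SD, n = 5), led by miR-20a-5p at 1042 ± 200 CPM and miR-17-5p at 353 ± 92.9 CPM. miR-92a-3p, which is also made from a hairpin on the X chromosome, stood at 45366 ± 5097 CPM. The passenger strand of the hairpin in this cluster, miR-92a-1-5p, stood at 48.2 ± 7.81 CPM, and miR-92a-2-5p, that of the hairpin on the X chromosome, had 1 count in all 5 libraries. Both hairpins give the same miR-92a-3p entry.

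Entries named 5p held 83.5% ± 2.32 of all counts and entries named 3p held 15.0% ± 2.28 (SD, n = 5), and 821 entries with no arm in their name held the rest. The 5p share was 84.2%, 85.8% and 85.2% in replicates 1 to 3 and 80.3% and 81.9% in replicates 4 and 5. Without miR-21-5p, 5p entries held 71.4% ± 2.53 and 3p entries 26.0% ± 2.60. The table has nearly as many 5p as 3p names (879 and 888), so this share comes from a few abundant 5p miRNAs.

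The first base showed the same unevenness. Of the 2281 entries with a sequence, 36.7% start with U, 28.0% with A, 21.7% with C and 13.5% with G. Of the counts of these entries, those that start with U held 78.6% ± 2.62 (SD, n = 5), or 62.0% ± 3.13 without miR-21-5p, and those that start with G 0.235% ± 0.0616. U started 44.6% of the entries over 10 CPM that had a sequence. A 5′ U fits a pocket of Argonaute, and G is known to fit it poorly. Whether this, or the preference of adaptor ligation for some ends, shaped these shares was not tested.

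For each hairpin with an entry for both arms, the arms were compared within libraries by the quasi-likelihood test of edgeR, with the library as a block. Of the 838 hairpins, 167 had 0 counts of both arms in all libraries and 396 more had under 10 counts in some library, which left 275 to test. The 838 pairs together held 87.2% ± 1.02 of all counts (SD, n = 5). The 5p arm was called higher in 122 hairpins (44.4% of those tested) and the 3p arm in 129 (46.9%), at an adjusted p under 0.05. With a fold over 2 as well, the counts were 117 (42.5%) and 127 (46.2%). By hairpins, the arms were thus close to even, unlike the shares of counts above. The same arm was higher in all 5 libraries in 252 of the 275. With replicates 1 to 3 alone the calls were 116 (5p) and 124 (3p), and with replicates 4 and 5 alone 112 and 136. The count minimum was applied to the libraries used each time, so the number tested could differ. These counts are thus not shares of the 275.

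Most hairpins were strongly one-sided. With 0.5 added to each count, the higher arm exceeded the lower one over 4-fold in 228 hairpins and over 256-fold in 52, and the median fold was 31.4. In 48 hairpins 1 arm was at or under 3 counts in every library, and with these set to their lower bound the counts were 224 and 36 and the median fold was 21.1. Among the 48 are miR-3074 and miR-550a, whose 5p entries lie opposite another entry at every locus. Their 0 is not read as absence, so their ratios are not read as arm usage. Arms were within 2-fold of each other in 24 hairpins. For the 79 hairpins with at least 100 CPM in sum and 10 counts of each arm in every library, the median SD of the log2 ratio over libraries was 0.37, and in 23 of them the mean ratio differed by over 1 on the log2 scale between replicates 1 to 3 and replicates 4 and 5.

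**Figure D2:**
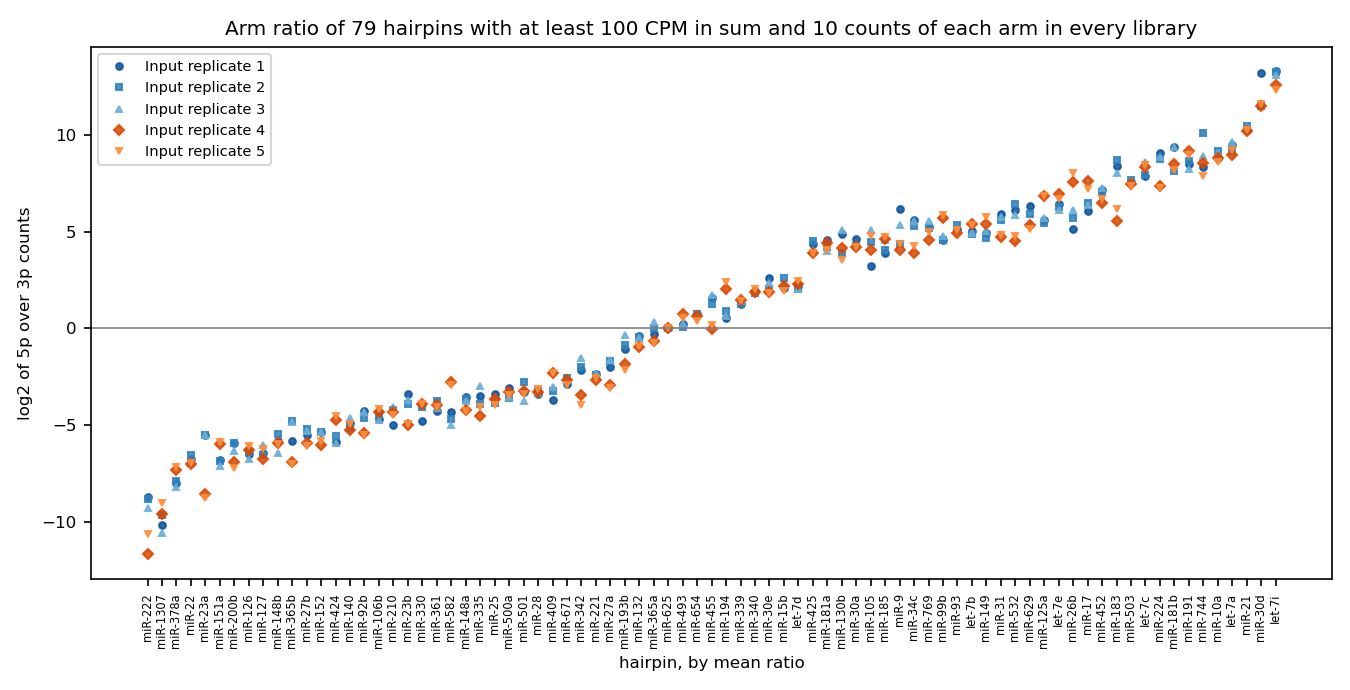
log2 of 5p over 3p counts (y axis) of the 79 hairpins with at least 100 CPM in sum and 10 counts of each arm in every library, ordered by mean (x axis); points are the 5 Input libraries. The mean ratios run from −9.85 for miR-222 and −9.81 for miR-1307 to 12.91 for let-7i, single libraries reach lower for miR-222, few hairpins lie near 0, and replicates 4 and 5 part from the others at miR-23a, miR-183, miR-26b and miR-222.

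Among hairpins with at least 100 CPM in sum and 10 counts of each arm in every library, the most 5p-sided were let-7i, miR-30d, miR-21, let-7a and miR-10a. miR-30d-3p had only 13 to 65 counts. Hairpins with fewer counts of an arm, such as miR-192 with 9 to 31 counts of miR-192-3p, are outside this ranking. let-7i-3p stood at 6.96 ± 0.771 CPM beside 55622 ± 17217 CPM of let-7i-5p, and the log2 ratio of 5p over 3p was 12.91 ± 0.43 (SD, n = 5, edgeR adjusted p = 9.49e-08). miR-21 had one of the steadiest ratios. miR-21-3p held 324 to 339 CPM in the 5 libraries, and the log2 ratio was 10.31 ± 0.11 (edgeR adjusted p = 4.19e-08). The ratio of miR-10a was 8.89 ± 0.24 and that of let-7a 9.28 ± 0.26, where the 5p entry is made from 3 hairpins and the 3p entry from 2.

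The most 3p-sided by the same count minimum were miR-222, miR-1307, miR-378a, miR-22 and miR-23a. miR-222-5p held 12.96, 11.4 and 8.15 CPM in replicates 1 to 3 and 1.96 and 4.03 CPM in replicates 4 and 5, while miR-222-3p held 5143 to 6689 CPM, and the log2 ratio was −9.85 ± 1.28 (SD, n = 5, edgeR adjusted p = 5.91e-06). miR-1307 was close to this (−9.81 ± 0.60), and miR-378a, whose hairpin lies in an intron of PPARGC1B, stood at −7.72 ± 0.46. miR-22 was steadier at −6.85 ± 0.19. miR-23a fell into sets, with a log2 ratio of −5.51 to −5.54 in replicates 1 to 3 and −8.57 and −8.80 in replicates 4 and 5. In those replicates miR-23a-5p was lower (8.97 and 6.72 CPM against 25.5 to 26.9) and miR-23a-3p higher (3419 and 3017 CPM against 1189 to 1242).

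Among entries made from hairpins at several places, whose opposite arms carry numbered names, the same one-sidedness was seen. miR-92a-3p exceeded the sum of miR-92a-1-5p and miR-92a-2-5p by 9.89 ± 0.30 on the log2 scale (SD, n = 5), and let-7f-5p exceeded its opposite arms by 9.34 ± 0.16. miR-16-5p, a miRNA known for repressing the cell cycle, was the least one-sided of these. It held 275, 266 and 271 CPM in replicates 1 to 3 and 910 and 937 CPM in replicates 4 and 5. miR-16-1-3p and miR-16-2-3p together held 202 ± 38.4 CPM, a log2 difference of 1.16 ± 1.23 with a range of 0.14 to 2.57. miR-16-5p is made from 2 hairpins, and its counts were not divided by them here. Which arm was higher in replicates 1 to 3 depends on that choice.

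Only 17 tested hairpins had at least 100 CPM of each arm, and 8 of them lay nearest to an even ratio. miR-625 had counts of 629, 1115, 947, 1762 and 2018 for miR-625-5p and 629, 1115, 947, 1763 and 2021 for miR-625-3p. The arms of this hairpin, in an intron of FUT8, are reverse complements of each other over 20 bases, shown here in capitals.
miR-625-5p: AGGGGGAAAGUUCUAUAGUCc
miR-625-3p: GACUAUAGAACUUUCCCCCUca
Nearly equal counts in every library were also seen for miR-4717, with 21 shared bases and 10, 35, 3, 7 and 18 counts of the 5p arm beside 10, 35, 3, 7 and 13 of the 3p arm. Other hairpins of this kind were at 0, such as miR-374b with 18 shared bases, or had unequal arms, such as miR-582 with 18. An even ratio in such a hairpin is not read as equal use of the arms.

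The others of the hairpins nearest to an even ratio were miR-365a, miR-455, miR-193b, miR-194, miR-30e, let-7d and miR-27a. Nearest is a rank among few hairpins, and miR-30e, let-7d and miR-27a still had 1 arm 4.39-fold, 4.59-fold and 4.86-fold above the other. miR-365a-5p held 424, 410 and 451 CPM in replicates 1 to 3 and 1187 and 900 CPM in replicates 4 and 5. miR-365a-3p held 529, 411, 360, 1909 and 1534 CPM in the same order, and the ratio did not pass the test (log2 −0.29 ± 0.46, edgeR adjusted p = 0.186). The sequence of miR-365a-3p is the same as that of miR-365b-3p, which had nearly the same counts, so reads of a pair of hairpins stand in each. miR-365b-5p, which has a sequence of its own, stood at 12.7 ± 2.44 CPM (SD, n = 5), far under miR-365a-5p in every library. The 5p arms tell the hairpins apart and the 3p arms do not.
miR-365a-5p: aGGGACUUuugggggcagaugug
miR-365b-5p: aGGGACUUucaggggcagcugu
miR-365a-3p: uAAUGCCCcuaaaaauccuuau
miR-365b-3p: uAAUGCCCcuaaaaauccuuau
With the 3p counts divided by the 2 loci, the miR-365a ratio turned to 0.71 and was called 5p-higher (edgeR adjusted p = 0.0109).

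miR-455, a hairpin in an intron of the collagen gene COL27A1, was called 5p-higher at a log2 ratio of 0.94 ± 0.81 (SD, n = 5, edgeR adjusted p = 0.0246), but this rested on replicates 1 to 3. There the 5p arm held 155 to 191.8 CPM and the 3p arm 54.6 to 65.8 CPM, while in replicates 4 and 5 the arms held 211 and 209 CPM (5p) and 216 and 185 CPM (3p). The call was lost without replicate 1, 2 or 3 (adjusted p = 0.0867, 0.0723 and 0.0709). With replicates 4 and 5 alone the ratio was 0.07 (adjusted p = 0.535).

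miR-193b was called 3p-higher (−1.25 ± 0.74, edgeR adjusted p = 0.00522) in all 5 libraries, with miR-193b-3p at 271 to 448 CPM in replicates 1 to 3 and 870 and 661 CPM in replicates 4 and 5. miR-194 was called 5p-higher (1.29 ± 0.86, edgeR adjusted p = 0.00813), at 344 to 407 CPM of miR-194-5p in the first set and 1180.5 and 1266 CPM in the second, with miR-194-3p at 195 to 293 CPM throughout. Ratios of miR-30e (2.13 ± 0.33), let-7d (2.20 ± 0.19) and miR-27a (−2.28 ± 0.69) were one-sided in all 5 libraries.

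In 6 hairpins with at least 10 CPM of each arm, the higher arm changed between libraries. miR-200a, an epithelial miRNA that represses ZEB1, had log2 ratios of 0.07, 0.98 and 0.88 in replicates 1 to 3 and −1.21 and −1.50 in replicates 4 and 5. This followed miR-200a-3p, at 13.7 to 18.2 CPM in the first set and 48.5 and 52.8 CPM in the second, while miR-200a-5p held 18.7 to 28.4 CPM throughout. miR-1247 turned the other way, from −1.33 to −1.45 in replicates 1 to 3 to 0.50 and 0.44 in replicates 4 and 5, with miR-1247-3p at 43.9 to 51.7 CPM in the first set and 11.5 and 11.2 CPM in the second. Neither passed the test over all 5 libraries (edgeR adjusted p = 0.751 and 0.154). miR-18a was 3p-higher in 4 of 5 libraries and was called so (−0.91 ± 0.74, edgeR adjusted p = 0.0261), and the call was lost without replicate 3, 4 or 5 (adjusted p = 0.0509, 0.0733 and 0.0696). miR-365a, miR-455 and miR-485 were the other 3.

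Members of a family can use different arms. Of 34 seeds that stand on the same arm of at least 2 tested hairpins with 10 CPM or more, 16 lay on the higher arm in all of their hairpins, 10 lay on the lower arm in all and 8 were split. These seeds are not separate observations. Several on the lower arm face a counted seed in the same hairpins, as UAUACAA faces GAGGUAG in let-7a, let-7b and miR-98. The 3p entries of miR-365a and miR-365b also share their reads. All 8 tested let-7 hairpins were called 5p-higher, from 2.20 for let-7d to values set by a 3p arm near 0, such as let-7g-3p at 0.118 CPM. The miR-30 hairpins were called 5p-higher in 4 of 4, those of the list of miR-99, miR-100 and miR-125 in 4 of 4 and those of the miR-182, miR-96 and miR-183 cluster in 3 of 3. All 4 of the list of miR-23 and miR-27 and all 3 of the list of miR-148 and miR-152 were called 3p-higher.

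The miR-17 seed, AAAGUGC, was split. It stands on the 5p arm of miR-17, miR-20a, miR-93, miR-106a and miR-106b, miRNAs known for promoting the cell cycle by repressing p21. miR-20a-5p, miR-93-5p and miR-17-5p were the higher arms of their hairpins, as was miR-106a-5p at 10.6 CPM, and miR-20a-5p was at least 1906-fold above a 3p arm with 6 counts in all. miR-93 had a log2 ratio of 5.12 ± 0.15 (SD, n = 5, edgeR adjusted p = 1.68e-07). miR-106b, which lies beside miR-93 in MCM7, was called 3p-higher at −4.49 ± 0.24 (edgeR adjusted p = 3.47e-07), with 45.5 to 72.4 CPM of miR-106b-5p and 1108 to 1410 CPM of miR-106b-3p.
miR-17-5p: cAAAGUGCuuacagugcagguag
miR-20a-5p: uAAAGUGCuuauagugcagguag
miR-93-5p: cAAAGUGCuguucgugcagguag
miR-106b-5p: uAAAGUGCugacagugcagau
miR-106b-3p: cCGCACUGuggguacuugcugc
The strand that prevailed in miR-106b thus starts with C and carries another seed, while the strand with the family's seed starts with U.

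The miR-181 family was split too. miR-181a, miR-181b and miR-181d were called 5p-higher, the first at 4.23 ± 0.24 (SD, n = 5), while miR-181c was called 3p-higher at −2.07 ± 0.33 (edgeR adjusted p = 0.0003), at a low level of 2.21 CPM (5p) and 9.60 CPM (3p). The 5p entries of miR-181a and miR-181b are each made from 2 hairpins, but the 3p entry in each ratio comes from 1 of them. For miR-181a the 3p arm left out, miR-181a-2-3p, was above miR-181a-3p in all 5 libraries. The ratio of miR-181a would thus be smaller with both 3p arms counted. Of the miR-193 pair, which shares its 3p seed, miR-193a stood at 140 ± 36.9 CPM of the 5p arm and 0.700 CPM of the 3p arm, against the 3p-higher ratio of miR-193b given above. In the list of miR-130, miR-301 and miR-454, miR-130b (4.31 ± 0.65) and miR-301a (2.75 ± 1.02) were called 5p-higher, whereas miR-130a (−3.15 ± 0.67) and miR-454 (−1.62 ± 0.21) were called 3p-higher. miR-29a was called 3p-higher and miR-29c 5p-higher, the latter at 7.20 CPM (5p) and 2.78 CPM (3p). miR-34a and miR-34c, p53 targets, were called 5p-higher and miR-34b 3p-higher, with 0 counts of its 5p arm.

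**Figure D3:**
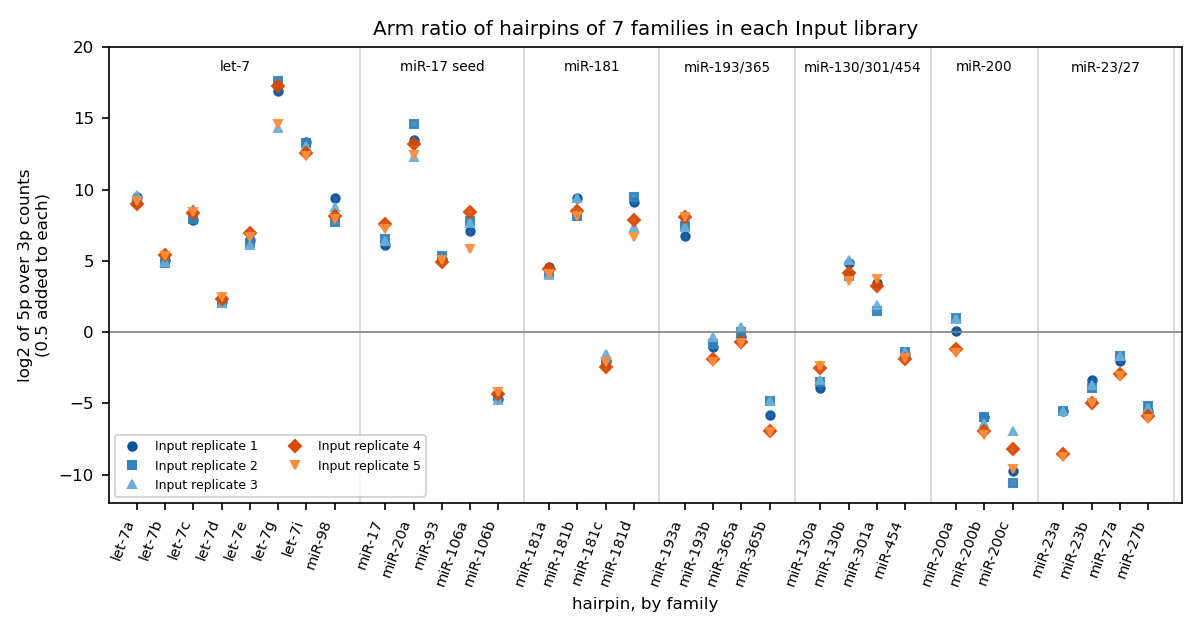
log2 of 5p over 3p counts, with 0.5 added to each (y axis), of the hairpins of 7 families or lists (x axis); points are the 5 Input libraries. The let-7 hairpins lie above 0 and the miR-23/27 hairpins below it in every library, while miR-106b, miR-181c, miR-193b, miR-130a and miR-454 lie on the other side of 0 from family members; the ratios of let-7g and miR-20a rest on a 3p arm with few or 0 counts.

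The remaining lists stand beside the same share of calls over all tested hairpins (91.3%). The miR-221 and miR-222 hairpins were called 3p-higher in 2 of 2. The miR-15 hairpins were called 5p-higher in 2 of 2, the miR-10 hairpins in 2 of 2 and the miR-192, miR-194 and miR-215 hairpins in 3 of 3. Of the miR-15 hairpins, miR-15a stood at only 4.55 CPM of the 5p arm, with 0 counts of the 3p arm. The miR-15 seed, AGCAGCA, was among the split seeds, since it lay on the lower arm of miR-195 and miR-424. The cluster of miR-106b, miR-93 and miR-25 had 1 hairpin called 5p-higher and 2 called 3p-higher, and the miR-17-92a-1 list had 2 of each. In the miR-200 list, miR-200b and miR-200c were called 3p-higher, miR-200a was not called and miR-141 had too few counts to test. The list of miR-143 and miR-145 had 1 tested hairpin, miR-143, which was called 3p-higher at 11.3 CPM, and 0 of the 3 hairpins of the list of miR-199 and miR-214 reached the count minimum.

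The ends of the arms were described for the 239 tested hairpins with a sequence for both arms. The higher arm started with U in 126 (52.7%) and the lower arm in 60 (25.1%). In 91 hairpins only the higher arm started with U, in 25 only the lower, in 35 both and in 88 neither. The other bases were more frequent at the start of the lower arm, C in 78 hairpins against 46, A in 70 against 48 and G in 31 against 19. The difference in U was seen where the 5p arm was called higher (62 against 25 hairpins, 58.5% against 23.6%) and where the 3p arm was (54 against 28 hairpins, 48.6% against 25.2%). Among hairpins with at least 100 CPM it was wider, 63.5% against 15.6% over 96 hairpins.

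The first 4 bases held 2.12 A or U on average in the higher arm and 1.81 in the lower. These include the first base described above, so the measures are not separate. The higher arm had more A or U there in 103 hairpins (43.1%), the lower arm had more in 66 (27.6%) and the arms were equal in 70. Hairpins are not replicates of a condition, and related hairpins share their sequences, so no test was made. By library, the share of higher arms that start with U was 51.9% to 53.1%.

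**Figure D4:**
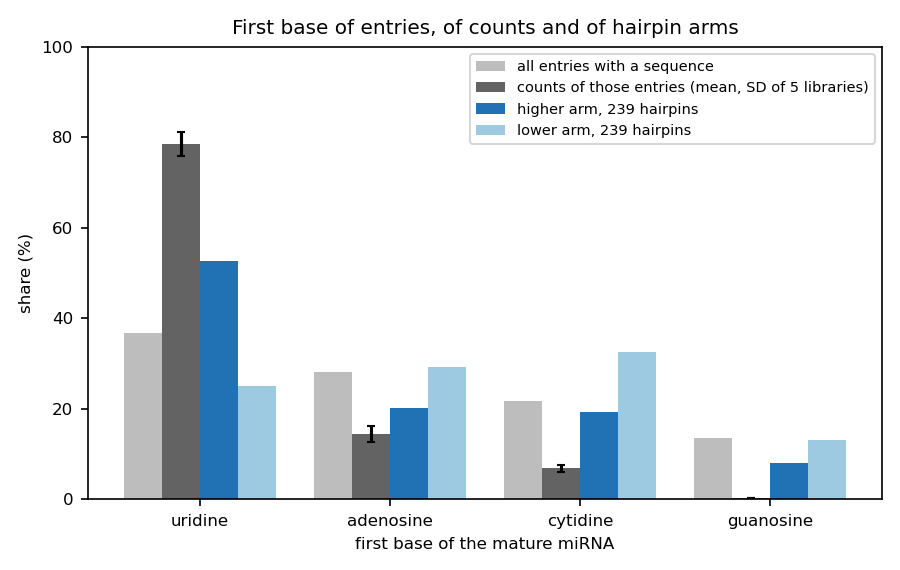
Share (percent, y axis, from 0) of each first base (x axis) among all entries with a sequence, among the counts of those entries (mean and SD of 5 libraries), and among the higher and the lower arms of 239 hairpins. U holds 78.6% of the counts of entries with a sequence but 36.7% of those entries, and starts 52.7% of the higher and 25.1% of the lower arms.

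The profile was set beside miRNAs known to mark cell types. The gut and liver epithelium list (miR-192-5p, miR-194-5p and miR-215-5p) summed to 12848 to 16727 CPM per library, with all 3 members over 10 CPM. Of the epithelial miR-200 list, 3 of 5 members were over 10 CPM, with miR-200b-3p highest at 258 to 307 CPM in replicates 1 to 3 and 850 and 829 CPM in replicates 4 and 5. miR-141-3p, which is usually made with miR-200c-3p from a common transcript, stood at 0.124 CPM beside 68.9 ± 14.1 CPM of miR-200c-3p (SD, n = 5).

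The list of neuroendocrine cells and islets summed to 6283 to 9352 CPM, nearly all of it miR-7-5p, with miR-375 at 85.4 ± 5.04 CPM (SD, n = 5). miR-7-5p is made from 3 hairpins, among them miR-7-1 in an exon of HNRNPK. With counts divided by the number of hairpins it held 0.276% of the counts in place of 0.751%. Of the neuronal list, miR-128-3p stood at 4900 ± 915 CPM and miR-9-5p at 385 ± 88.3 CPM, while miR-124-3p was at 0 in 3 of 5 libraries and at most 1.21 CPM. miR-126-3p, an endothelial miRNA, stood at 407 ± 90.5 CPM. The multiciliated list was represented by miR-34c-5p at 111 ± 29.7 CPM, with miR-449a at most 0.845 CPM and miR-34b-5p at 0.

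Lists of blood, muscle and pluripotent cells were at or near 0. The erythroid list summed to at most 0.768 CPM, the pluripotent and placental list to at most 0.939 CPM, the stratified epithelium list to at most 1.88 CPM, the muscle list to at most 6.20 CPM and the white blood cell list to at most 7.60 CPM, where miR-155-5p led. The smooth muscle and fibroblast list summed to 6.08 to 26.0 CPM, led by miR-143-3p. miR-122-5p, miR-451a, miR-486-5p, miR-499a-5p, miR-203a-3p, miR-214-3p and miR-371a-5p are opposite another entry on the other strand, so their levels at or near 0 are not read as absence. The list of miRNAs abundant in cancer lines had all 6 members over 10 CPM, with miR-31-5p lowest at 793 to 1386 CPM.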

How the data were processed

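Small RNA libraries (NEBNext Small RNA kit, single reads) of A549 Input RNA were counted by the authors per mature miRNA, and the deposited values are raw counts, neither normalized nor pooled. The methods name STAR on hg38 with few mismatches and reads kept at several loci, and the submitters' processing notes list Trimmomatic, Bowtie2 and featureCounts. The strand setting is not given in the sources used here. All 2588 entries name a miRNA, and 0 columns matched no sample. The other assay and the pulldown libraries were not used here.

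CPM were taken over each column's total. Hairpins came from GENCODE 44, and sequences from RefSeq, which matched 2281 entries. Another 24 entries joined a family by name, and 283 had no family. Arms were tested with edgeR 4.0.16 (R 4.3.3) quasi-likelihood fits, counts by library and arm, library as a block, at least 10 counts of both arms together in every library, and Benjamini-Hochberg adjustment over all 275 hairpins. Same-numbered columns of both arms are the same library, which is what pairs them. Printed log2 ratios are means over libraries of log2 with 0.5 added to each arm. Tested on simulated data of 275 hairpins, of which 200 were changed by a log2 of 2, the fit recovered 100% with 2 false calls. The false calls are out of the hairpins left unchanged. This checks the fit for a change of that size only. It says nothing on smaller ratios or on ratios that differ between the sets of libraries. DESeq2 1.42.0 and limma 3.58.1 were alternatives. Other results are descriptions without a test. No pair of libraries agreed within counting noise (chi-square per degree of freedom 25.8 to 655). Intervals are not given for shares, as counting error is far below the spread between libraries.

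The named miRNAs are the first 20 entries, the 10 largest families and clusters, the 5 most 5p-sided and 5 most 3p-sided hairpins with at least 100 CPM and 10 counts of each arm, the 8 nearest to even, the 5 most counted that change sides, the family lists and the markers. miR-4717, miR-485, miR-374b, miR-582, miR-941 and the entries on opposite strands were chosen after their values were seen. Members and lists were chosen with earlier results of these data known.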

Additional observations from a re-analysis of the deposited data

Results flagged for a closer look

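In 5 of 59 sets of 5 libraries, 1 library lay further from the nearest other than Dixon's critical value of 0.71 of the range allows. In all 5 it was replicate 1, the library with the fewest counts, which was highest. The usual rate of about 1 in 20 holds for separate values drawn from 1 population. It cannot be applied here, since replicates 1 to 3 stood apart from 4 and 5. The flagged values also overlap, as the miR-30 family contains miR-30a-5p. let-7a-5p stood at 55671 CPM in replicate 1 against 43999 to 46834 CPM in the others, let-7f-5p at 34918 against 29017 to 30461 CPM, and miR-30a-5p at 17569 against 13642 to 14686 CPM. The share of the miR-30 family was 3.86% against 2.99% to 3.22%. The log2 ratio of 5p over 3p of miR-30d was 13.18 against 11.48 to 11.61, with 13 counts of miR-30d-3p in that library.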

How the results depend on the processing

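Leaving out a replicate moved the share of miR-21-5p between 41.3% and 43.4% and the 5p-higher calls between 119 and 122. For the calls with fewer replicates, the count minimum was applied to those kept, so the number of hairpins tested could differ. With counts divided by the number of hairpins (those opposite another entry left out), 17 of 39 shares moved by over 1 SD: miR-21-5p rose to 46.6% and the let-7 family fell to 11.7%, and 6 shares fell by over 1.5 times, let-7a-5p to 1.74%, miR-92a-3p to 2.50%, let-7f-5p to 1.69%, miR-7-5p to 0.276% (rank 33), miR-26a-5p to 0.380% (rank 26) and the miR-25/92 family to 3.06%. The order of ranks 4 to 9 and the let-7 shares thus depend on this choice. With replicates 4 and 5 alone, the miR-99/100 family held 14.6%, the miR-99b cluster 5.14% and the miR-27b cluster 3.99%. By name in place of seed, miR-100 alone held 9.58%. Without the replicate block, 119 hairpins were called 5p-higher and 133 3p-higher, miR-1247 was called (edgeR adjusted p = 0.0483) and miR-455 was not (adjusted p = 0.0971). A minimum of 10 counts of each arm left 117 hairpins to test, with 58 and 50 calls. The share of higher arms that start with U was 51.7% to 52.9% without each replicate, 51.6% with replicates 1 to 3, 53.8% with replicates 4 and 5 and 53.8% where arms differed over 4-fold in every library, and that of lower arms was 24.4% to 25.7%, 25.8%, 26.6% and 21.5%. The log2 ratio of miR-200a was −0.46 to 0.19 without each replicate and 0.66 with replicates 1 to 3, that of miR-1247 was 0.47 with replicates 4 and 5, and that of miR-365a was 0.00055 with replicates 1 to 3 and 0.71 with divided counts. DESeq2, limma, TMM and size factors kept both counts of calls within 1.5 times.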
